A study of Mus musculus with 6 samples.

Results

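The transcripts described here are those of 9 genes that T cells are not known for: the adult globin genes Hba-a1, Hba-a2, Hbb-bs and Hbb-bt, the erythroblast genes Alas2, Klf1 and Slc4a1, and the platelet genes Pf4 and Gp9. They were chosen by symbol as genes of red cells and platelets, and all 9 were found among the 53379 gene identifiers of the count tables. The tables hold 6 RNA-seq libraries of sorted regulatory T cells (Tregs, CD4 T cells that express FOXP3) from C57BL/6 mice aged 3 months. WT stands for 3 libraries of genotype Foxp3YFP-CrexJunb+/+ and KO for 3 libraries of genotype Foxp3YFP-CrexJunbFlox/Flox, so that both genotypes carry the Cre allele and only KO carries floxed Junb. Cre is made where Foxp3 is active, which is in Tregs, whereas every cell of a KO mouse carries the floxed allele. The labels name no organ of origin, no number of animals behind a library and no sorting gate.

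Library totals lay between 33784183 and 41231173 counts, and CPM below are counts scaled to library size with TMM factors. Lists of 3 values run from replicate 1 to replicate 3 of a genotype. The most abundant T cell list genes, the receptor constant segments Trbc2, Trbc1 and Trac, were read in all 6 libraries, with Trbc2 at a mean of 1957 CPM. Junb, the targeted gene, averaged 84.7 ± 6.32 CPM over the WT libraries and 54.7 ± 4.38 CPM over the KO libraries. Each ± is an SD over 3 libraries (n = 3).

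As background, red cells arise from nucleated erythroblasts in marrow and, in mice, also in the spleen. The factor KLF1 and its partner GATA1 turn on the alpha and beta globin genes, the first enzyme of heme synthesis in erythroid cells (ALAS2) and the anion exchanger of the red cell membrane (SLC4A1, band 3). Reticulocytes and young red cells lose the nucleus and keep globin mRNA, and platelets, shed by megakaryocytes, carry their own RNA, such as that of PF4, a chemokine of platelet granules, and GP9, a subunit of the glycoprotein Ib-IX-V receptor. In a bulk library, fewer cells of a type and less RNA per cell cannot be told apart.

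The alpha globin genes lie 12024 bases apart on chromosome 11 of GRCm38 (Hba-a1 at 32283511 to 32284465, Hba-a2 at 32296489 to 32297298, both on the plus strand). The beta globin genes lie 12538 bases apart on chromosome 7 (Hbb-bs at 103826534 to 103828096, Hbb-bt at 103812524 to 103813996, both on the minus strand). Each pair is nearly a copy, which limits what a read of 50 bases can tell. Hba-a1 and Hba-a2 differed at 1 of 426 coding bases and Hbb-bs and Hbb-bt at 1 of 441. The last 120 coding bases before the stop codon, in the final exon of each gene, are shown because they hold that base, which is in capitals (chr11:32284269-32284388 and chr11:32297086-32297205, plus strand, chr7:103826668-103826787 and chr7:103812659-103812778, minus strand, from GENCODE M21 transcripts).
Hba-a1: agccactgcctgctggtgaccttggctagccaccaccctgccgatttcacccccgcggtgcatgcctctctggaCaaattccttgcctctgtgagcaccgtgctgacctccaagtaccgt
Hba-a2: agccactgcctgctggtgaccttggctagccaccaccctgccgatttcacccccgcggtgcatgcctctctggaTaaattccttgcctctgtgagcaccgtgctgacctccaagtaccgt
Hbb-bs: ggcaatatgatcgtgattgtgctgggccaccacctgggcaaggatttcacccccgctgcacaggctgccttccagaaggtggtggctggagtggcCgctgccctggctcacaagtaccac
Hbb-bt: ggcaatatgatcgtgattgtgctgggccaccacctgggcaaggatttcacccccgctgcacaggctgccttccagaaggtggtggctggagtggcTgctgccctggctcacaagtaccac

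Of the 650 windows of 50 bases in the main Hba-a1 transcript, 439 (67.5%) stand unchanged in Hba-a2, and of the 505 windows of Hba-a2, 86.9% stand in Hba-a1. For Hbb-bs and Hbb-bt the shares were 65.8% and 58.3%. Not 1 of the 650 windows of Hba-a1 was found in Hbb-bs (0 shared). Values of single genes within a pair are therefore uncertain, whereas Hba-a1 and Hbb-bs share no exact window. Hba-a2 and Hbb-bt were not compared across the pairs.

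Windows of 250 bases before the RefSeq start (GRCm38.p6) of an alpha globin, a beta globin, the other erythroid genes with an entry, and Gp9 are shown because GATA1 is known to act in both erythroid cells and megakaryocytes. Capitals mark the letters GATAA and CACCC, the cores of the words that GATA and KLF factors read, searched on both strands. The windows lie at chr11:32283422-32283671 (plus), chr7:103827929-103828178 (minus), chrX:150547167-150547416 (plus), chr8:84901732-84901981 (plus) and chr6:87777820-87778069 (plus). The repeated CACCC matches of Alas2, on the reverse strand, abut each other.
Hba-a1: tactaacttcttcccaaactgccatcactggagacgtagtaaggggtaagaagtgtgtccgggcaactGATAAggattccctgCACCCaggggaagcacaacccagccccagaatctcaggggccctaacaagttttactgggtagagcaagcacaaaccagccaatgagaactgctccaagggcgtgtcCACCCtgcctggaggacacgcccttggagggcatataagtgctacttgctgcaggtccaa
Hbb-bs: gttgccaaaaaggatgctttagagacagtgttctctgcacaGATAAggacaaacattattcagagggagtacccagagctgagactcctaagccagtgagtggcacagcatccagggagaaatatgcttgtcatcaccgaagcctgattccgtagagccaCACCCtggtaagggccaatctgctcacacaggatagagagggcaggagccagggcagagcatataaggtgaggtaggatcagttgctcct
Alas2: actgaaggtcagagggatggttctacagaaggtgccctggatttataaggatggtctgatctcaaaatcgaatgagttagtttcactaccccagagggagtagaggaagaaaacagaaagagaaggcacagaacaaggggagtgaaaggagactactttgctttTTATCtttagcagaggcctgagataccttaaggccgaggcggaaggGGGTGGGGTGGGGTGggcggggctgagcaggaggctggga
Klf1: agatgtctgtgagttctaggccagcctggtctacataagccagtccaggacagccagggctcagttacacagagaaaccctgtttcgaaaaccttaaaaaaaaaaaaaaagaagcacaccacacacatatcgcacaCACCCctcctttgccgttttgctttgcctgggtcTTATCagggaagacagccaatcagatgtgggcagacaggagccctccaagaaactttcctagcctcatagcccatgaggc
Gp9: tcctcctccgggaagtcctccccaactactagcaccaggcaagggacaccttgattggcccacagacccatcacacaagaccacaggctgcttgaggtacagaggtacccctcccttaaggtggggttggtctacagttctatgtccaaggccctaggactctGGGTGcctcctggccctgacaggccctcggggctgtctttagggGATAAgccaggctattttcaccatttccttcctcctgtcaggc

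Of the 9 genes, 8 had an entry, and the window of Hba-a2 is that of Hba-a1 shifted by a few bases. GATAA stood once in each window other than that of Pf4, which held neither word. CACCC stood 2 times in Hba-a1 and Hba-a2, 3 times in Hbb-bt and Alas2, and once in Hbb-bs, Klf1 and Gp9. Of 32851 promoter windows of this length, 22.6% held GATAA and 52.0% held CACCC on either strand. A match is therefore a description of the letters and does not by itself show a binding site.

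Adult globin transcripts were present in all 6 libraries and varied 99.1-fold between the highest and the lowest, both of them KO. Their summed level was 103 CPM in WT replicate 1, 412 CPM in WT replicate 2 and 2744 CPM in WT replicate 3. In KO it was 7597 CPM in replicate 1, 1611 CPM in replicate 2 and 76.7 CPM in replicate 3. The genotypes overlapped. The globins took 0.00771% of all counts in KO replicate 3 and 0.744% in KO replicate 1.

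The alpha globin gene Hba-a1 gave 29.3, 104 and 763 CPM for WT, against 2030.4, 436 and 20.9 CPM for KO. Its copy Hba-a2 gave 28.3, 100.1 and 712 CPM for WT, against 1916, 415 and 21.05 CPM for KO. The libraries fell in the same order for both. The beta globin gene Hbb-bs gave 24.8, 111 and 673 CPM for WT, against 1947, 405 and 19.1 CPM for KO. Hbb-bt gave 20.6, 97.6 and 596.5 CPM for WT, against 1703, 356 and 15.7 CPM for KO, again in that order of libraries.

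**Figure D1:**
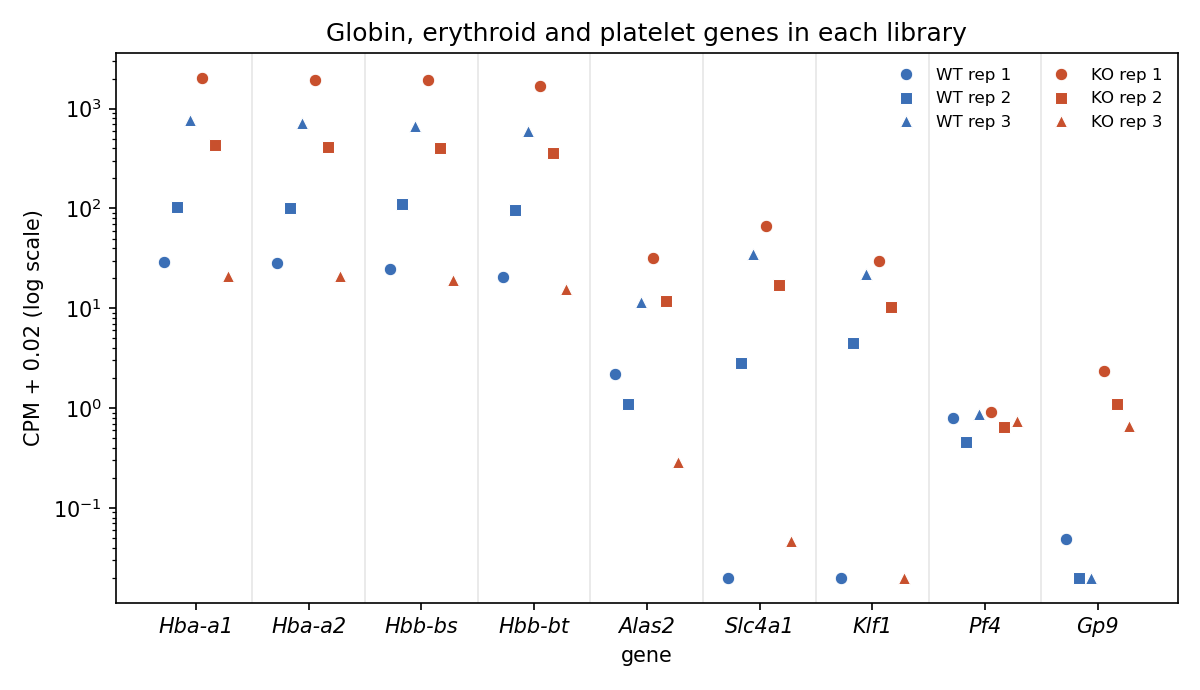
Level of each of the 9 genes in each library, as CPM plus 0.02 on a log axis, with WT in blue and KO in orange and 1 marker shape per replicate number. The 4 globins keep 1 order of libraries from KO replicate 3 (76.7 CPM summed) to KO replicate 1 (7597 CPM summed), Pf4 stays under 1 CPM in all 6, and Gp9 is higher in each KO library than in each WT library.

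The difference between genotypes did not exceed the spread within them. The summed globins averaged 1087 ± 1444 CPM over WT libraries and 3095 ± 3973 CPM over KO libraries. By edgeR the log2 differences (KO minus WT) were 1.47 for Hba-a1 (SE 1.56, 95% interval -2.23 to 5.18), 1.48 for Hba-a2, 1.55 for Hbb-bs (SE 1.56, 95% interval -2.15 to 5.26) and 1.54 for Hbb-bt, each with an adjusted p of 0.9999 over the 20475 genes tested. EdgeR called 0% of all genes tested at an adjusted p of 0.05, and 2.88% (590 genes) had an unadjusted p under 0.05. None of the 4 globins was among those 590 (unadjusted p between 0.354 and 0.378). Without KO replicate 1 the log2 difference of all 4 turned, to between -0.39 and -0.34, and without WT replicate 3 it was 3.53 to 3.63.

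Within a library the globins kept nearly fixed proportions while their level changed. The count of Hba-a1 over that of Hba-a2 lay between 0.991 and 1.07, and that of Hbb-bs over Hbb-bt between 1.13 and 1.21. Part of each pair's reads cannot tell the copies apart, and the effect of this on both ratios was not tested. Alpha over beta counts lay between 0.979 in WT replicate 2 and 1.27 in WT replicate 1. That is a 1.30-fold range beside a 99.1-fold range of the level. Hba-a1 and Hbb-bs share no window of 50 bases, and the other alpha and beta copies were not compared.

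The embryonic globin Hba-x, the zeta chain of the alpha cluster, followed the adult globins at a far lower count. It had 2, 13 and 70 counts in WT, against 221, 30 and 2 in KO. That is 0.532 to 0.921 counts per 1000 adult globin counts in every library, and 0 of its 752 windows of 50 bases were found in Hba-a1. The theta-like genes Hbq1a and Hbq1b had at most 26 and 54 counts, both in KO replicate 1. The embryonic beta gene Hbb-bh1 had at most 14 counts, Hbb-y had 1 in all, and Hbb-bh2 and Hbb-bh0 had 0.

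The 3 erythroblast genes followed the globins across libraries. Slc4a1 (chromosome 11, 102348824 to 102366203) gave 0, 2.83 and 34.8 CPM for WT, against 67.3, 17.2 and 0.0269 CPM for KO, the last from 1 count. Klf1 gave 0, 4.497 and 21.9 CPM for WT, against 29.5, 10.2 and 0 CPM for KO. The 0 counts of WT replicate 1 and KO replicate 3 allow up to 0.0867 and 0.0808 CPM (3 counts, counting error only). WT replicate 1 and KO replicate 3, the libraries with the least globin, were thus also the lowest for Slc4a1 and Klf1.

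Alas2 (chromosome X, 150547375 to 150570638) gave 2.20, 1.08 and 11.5 CPM for WT, against 32.2, 11.9 and 0.269 CPM for KO. Its order differed from that of the globins in that WT replicate 1 lay above WT replicate 2. It overlaps Apex2, a DNA repair gene on the other strand, at 4.47 to 15.6 CPM and chosen for that overlap, and no source used here says whether counting used strand. The ubiquitous isoform Alas1 averaged 22.4 ± 8.03 CPM over WT libraries and 33.03 ± 3.83 CPM over KO libraries, with no overlap between genotypes and an unadjusted edgeR p of 0.097.

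Set against the log2 CPM of the summed globins over the 6 libraries, Pearson's r was 0.98 for Slc4a1 (Spearman's rho 0.94), 0.95 for Klf1 (rho 0.99) and 0.92 for Alas2 (rho 0.89). Without KO replicates 1 and 3, the libraries farthest from the median globin level, r was 0.98, 0.94 and 0.79. These are descriptions over 6 libraries, which share a protocol and pass through 0 counts, and no test was made of them. Between genotypes the log2 differences were 1.16 for Slc4a1 (SE 2.06), 0.59 for Klf1 (SE 1.98) and 1.58 for Alas2 (SE 1.42), each with an edgeR adjusted p of 0.9999. Without KO replicate 1 the difference was -0.55 for Slc4a1, -0.79 for Klf1 and 0.30 for Alas2, and without WT replicate 3 it was 4.30, 2.54 and 3.17. Without WT replicate 1 it was 0.58, 0.0025 and 1.23, and without WT replicate 2 it was 0.69, 0.27 and 1.10. Klf1 (chromosome 8, 84901928 to 84905291) lies 69.2 kb from Junb, and its ranges in the genotypes overlapped.

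Per kilobase of exon, the globins far exceeded the other erythroid genes. The means over libraries were 694 CPM per kb for Hba-a1 and 690.1 CPM per kb for Hbb-bs, which did not differ beyond their spread. They were 7.19 for Klf1, 4.16 for Slc4a1 and 4.10 for Alas2, and the ranges of these 3 genes over libraries overlapped. Pf4 had 0.998 and Gp9 0.774 CPM per kb.

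For Slc4a1 and Klf1, the ratio to globins was higher in each of the 4 libraries with the most globin than in WT replicate 1 and KO replicate 3. Slc4a1 had 6.87, 12.7, 8.86 and 10.7 counts per 1000 globin counts in WT replicates 2 and 3 and KO replicates 1 and 2. In KO replicate 3 it had 0.351 (95% Poisson interval 0.0089 to 1.96), and in WT replicate 1 it had 0, which allows up to 0.842 (3 counts). Klf1 had 10.9, 7.96, 3.88 and 6.31 counts per 1000 in the same 4 libraries and 0 in the other two, where up to 0.842 and 1.05 are allowed. The intervals of the low libraries did not reach the values of the 4 libraries, for either gene, on counting error alone.

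Car2 and Rhd varied 3.31-fold and 3.22-fold in this ratio over all 6 libraries. Car2, the carbonic anhydrase abundant in red cells, had 131 to 139 counts per 1000 globin counts in WT and 69.8, 169.9 and 231 in KO replicates 1 to 3. Rhd, a Rhesus blood group protein, had 4.22 to 13.6 counts per 1000. Alas2 had 2.62 to 7.36 in 5 libraries and 21.3 in WT replicate 1. Carbonic anhydrase 1 (Car1), chosen after its values were seen, spread more widely, from 30.7 in KO replicate 1 to 158 in WT replicate 1.

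**Figure D2:**
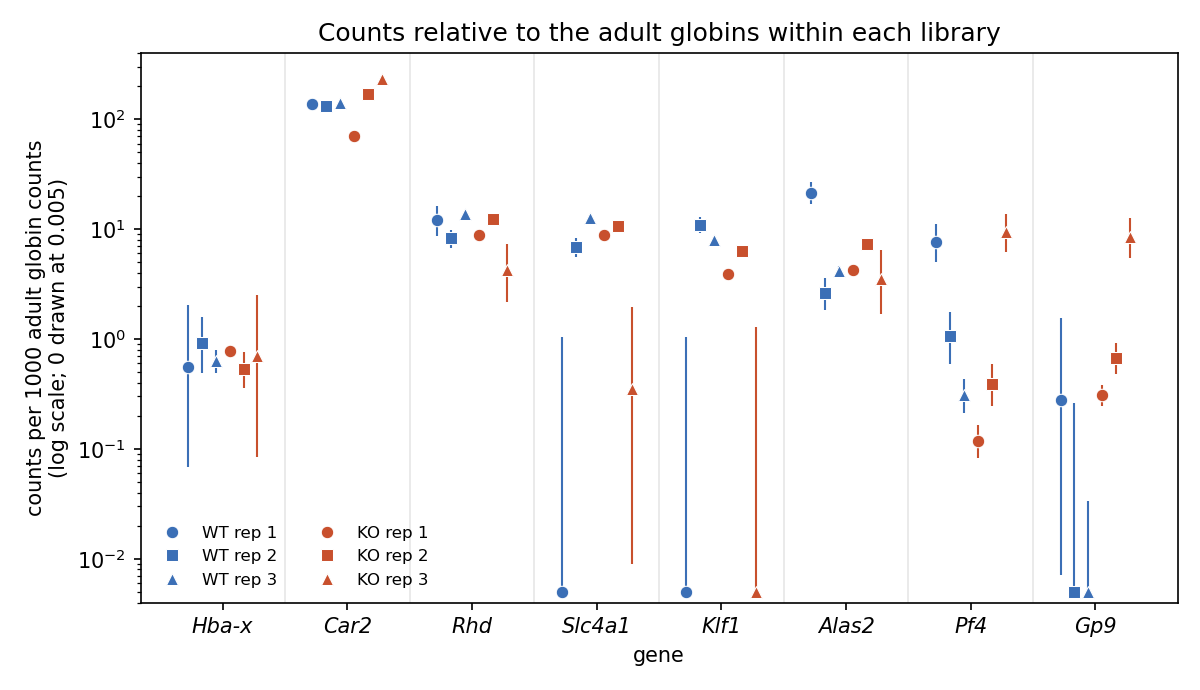
Counts of 8 genes per 1000 adult globin counts in each library, on a log axis, with 95% Poisson intervals that cover counting error only and a count of 0 drawn at 0.005. The point values of Hba-x lie between 0.532 and 0.921 in all 6 libraries, with wide intervals in WT replicate 1 and KO replicate 3. Pf4 runs from 0.119 in KO replicate 1 to 9.49 in KO replicate 3, since its level does not move with the globins.

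Part of the wider erythroid lists followed the globins gene by gene. Of 58 erythroid list genes tested, the members left out, 19 (32.8%) had an r of at least 0.9 with the summed globins, where 1.1% of all 20475 genes tested did. The count lay between 16 and 25 of 58 when each library was left out in turn, beside 1.72% to 2.42% of all genes. Of the membrane and cytoskeleton genes 8 of 19 passed that level, of heme synthesis and iron import genes 4 of 14, of transcription factors 2 of 9 (Klf1 and Tal1) and of other erythroblast and reticulocyte genes 9 of 20, members included and Rhd counted in 2 of these lists.

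Among them were defining genes of erythroid cells, of which Hemgn was chosen after its values were seen. Rhd had 43, 116 and 1505 counts in WT, against 2513, 693 and 12 in KO. Hemgn, a nuclear protein of erythroid precursors, had 0, 48 and 433 counts in WT, against 1142, 428 and 0 in KO. Both genes were lowest in WT replicate 1 or KO replicate 3 and high in both a WT and a KO library.

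The erythroid list genes of highest mean other than Car2 and Rhd varied in how far they followed the globins. Bnip3l, a mitophagy receptor, lay between 133 and 148 CPM in all 6 libraries, and the LIM-domain cofactor Ldb1 between 48.9 and 86.2 CPM. The porphyrin oxidase Ppox lay between 63.8 and 79.7 CPM and Urod, a decarboxylase of the same pathway, between 33.4 and 63.9 CPM. The cytoskeletal gene Epb41 lay between 37.0 and 67.4 CPM and Gypc, glycophorin C, between 21.9 and 43.4 CPM. Gata1 was read at 11.9 to 30.7 CPM with an r of 0.26, and Bcl11a, a repressor of fetal globin that B cells also express, at 2.23 to 26.4 CPM with an r of 0.38. Prdx2, a peroxiredoxin abundant in red cells, ranged from 80.6 CPM in WT replicate 1 to 181 CPM in WT replicate 3 (r 0.85) and overlaps Junb and Rnaseh2a. The heme enzyme Alad ran from 27.1 to 70.8 CPM (r 0.91).

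The 5 genes most like the summed globins, of all genes tested other than the members, were Hba-ps3, Hbb-bh3, Blvrb, Asf1b and 2600006K01Rik, with r between 0.993 and 0.998 over 6 libraries. Hba-ps3 and Hbb-bh3 are annotated as globin pseudogenes, with at most 364 and 794 counts. Of the windows of 50 bases, 0 of 353 of Hba-ps3 stood in Hba-a1 and 0 of 217 of Hbb-bh3 stood in Hbb-bs. Hba-a2 and Hbb-bt were not searched, and whether reads with mismatches were placed on these pseudogenes was not tested. Blvrb, a biliverdin and flavin reductase of red cells, ran from 6.93 CPM in KO replicate 3 to 76.1 CPM in KO replicate 1. Asf1b, a histone chaperone of dividing cells, ran from 21.2 to 43.6 CPM in the same libraries. 2600006K01Rik had at most 47 counts.

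Between genotypes, 46 of the 58 erythroid genes had a higher mean in KO and 12 a lower one, with a median log2 difference of 0.36. Over all genes tested 10421 were higher and 10054 lower, with a median of 0.0055. The lean was not particular to erythroid genes. Higher in KO were also 15 of 16 myeloid (median 0.70), 11 of 12 B cell (0.40) and 7 of 8 acinar genes (0.96). Of T cell and Treg genes 0 of 12 were higher (median -0.20). Genes that follow the globins vary together, so such counts are not of independent genes. By edgeR 0 of the 58 passed, and DESeq2 called 0 of them. The KO libraries lay wholly above the WT libraries for 2 of the 58 (Alas1 and Ppox) and wholly below for 2, Xpo7 among them, where 3.68% and 4.07% of all genes tested did so. Alas1 and Xpo7 were chosen for that pattern after their values were seen.

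Platelet transcripts were scarce and did not follow the globins over the 6 libraries. Pf4 (chromosome 5, 90772435 to 90773383) gave 0.781, 0.438 and 0.842 CPM for WT, against 0.901, 0.628 and 0.728 CPM for KO, from 15 to 34 counts a library. Its highest library was 2.06 times its lowest, with the genotypes overlapping. Pf4 averaged 0.687 ± 0.218 CPM over WT libraries and 0.752 ± 0.138 CPM over KO libraries, with a log2 difference of 0.13 (SE 0.62, 95% interval -1.33 to 1.59) and an edgeR adjusted p of 0.9999. Its r with the summed globins was 0.30.

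Gp9 (chromosome 6, 87778072 to 87779768) was read nearly in KO libraries alone. It had 1, 0 and 0 counts in WT, against 88, 38 and 24 in KO. In CPM these were 0.0289, 0 and 0 for WT, against 2.33, 1.09 and 0.647 for KO. The r of Gp9 with the summed globins was 0.33 (rho 0.26) over the 6 libraries, with the WT counts at or near 0. Within KO, Gp9 fell from replicate 1 to replicate 3, as the globins did. Each KO library lay above each WT library, a pattern that 7.76% of all genes tested had in 1 direction or the other and 3.68% had with KO above. The ratio of the summed counts, 150 in KO over 1 in WT, was 149 after scaling, with an exact 95% counting interval from 26.4 to 5927 that holds no spread between libraries. By edgeR the log2 difference was 6.74 (SE 1.26), a value that depends on the prior count, with an unadjusted p of 0.00111 and an adjusted p of 0.9999. DESeq2 called Gp9 (adjusted p = 0.00497), as it called 0.272% of the 23198 genes to which it gave an adjusted p, and 0.151% as higher in KO. The gene passed the filter on low counts only through the KO libraries, so that a difference was built into its being tested, and a filter of 1 CPM in 3 libraries removed it along with Pf4.

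Partners of GP9 in the same platelet receptor and the platelet genes Ppbp and Itga2b, chosen after their values were seen, did not share one pattern. Gp1ba had 18, 0 and 0 counts in WT, against 23, 21 and 26 in KO, also without overlap in CPM. Gp1bb had 17, 6 and 1 counts in WT and 11, 7 and 12 in KO, with overlap. Gp5 had 8 counts in KO replicate 1 and 0 elsewhere. Ppbp, a platelet chemokine like Pf4, had 6 counts in WT replicate 1, 32 in KO replicate 3 and 0 in the other libraries. Itga2b, the integrin alpha IIb chain of the platelet fibrinogen receptor, leaned the other way, with 121, 60 and 8 counts in WT, against 2, 8 and 11 in KO. Its log2 difference was -3.21 (SE 1.16), with an unadjusted edgeR p of 0.0283 and an adjusted p of 0.9999, and the genotypes overlapped.

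Of the 35 platelet and megakaryocyte genes matched, 21 were tested, with 15 higher and 6 lower means in KO and a median log2 difference of 0.24. EdgeR called 0 of them and DESeq2 called Gp9. No overlap, with KO above, was found for 3 of the 21 (Gp9, Gp1ba and Tmem40), beside 3.68% of all genes tested, and several low genes entered the test through 1 genotype only. The platelet tubulin Tubb1, the receptor-like Treml1, Mmrn1 and Gng11 had 0 counts in all 6 libraries, where each library allows up to 3 counts. The list genes of highest mean were Fermt3 at 203 to 321 CPM, Bin2 at 147 to 225 CPM and Cd9 at 48.1 to 71.1 CPM. These 3 are also expressed in other blood cells and make up most of the list's sum (534 to 704 CPM). Of the 21 genes 0 had an r of 0.9 with the globins, which is near the 1.1% of all genes tested that did. Their median r was -0.15, and the highest was 0.85 for the integrin gene Itgb3, which is not restricted to platelets.

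The 5 genes most like the sum of Pf4 and Gp9 were Mlst8, Npm3-ps1, Tatdn2, Gm43379 and Guk1, with r between 0.976 and 0.986 over 6 libraries. None of them is in the platelet list, and the sum rests on the few counts given above. Per 1000 globin counts Pf4 had 0.119 to 9.49 counts, a range of 80.0-fold, where the point values of Hba-x had a range of 1.73-fold.

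**Figure D3:**
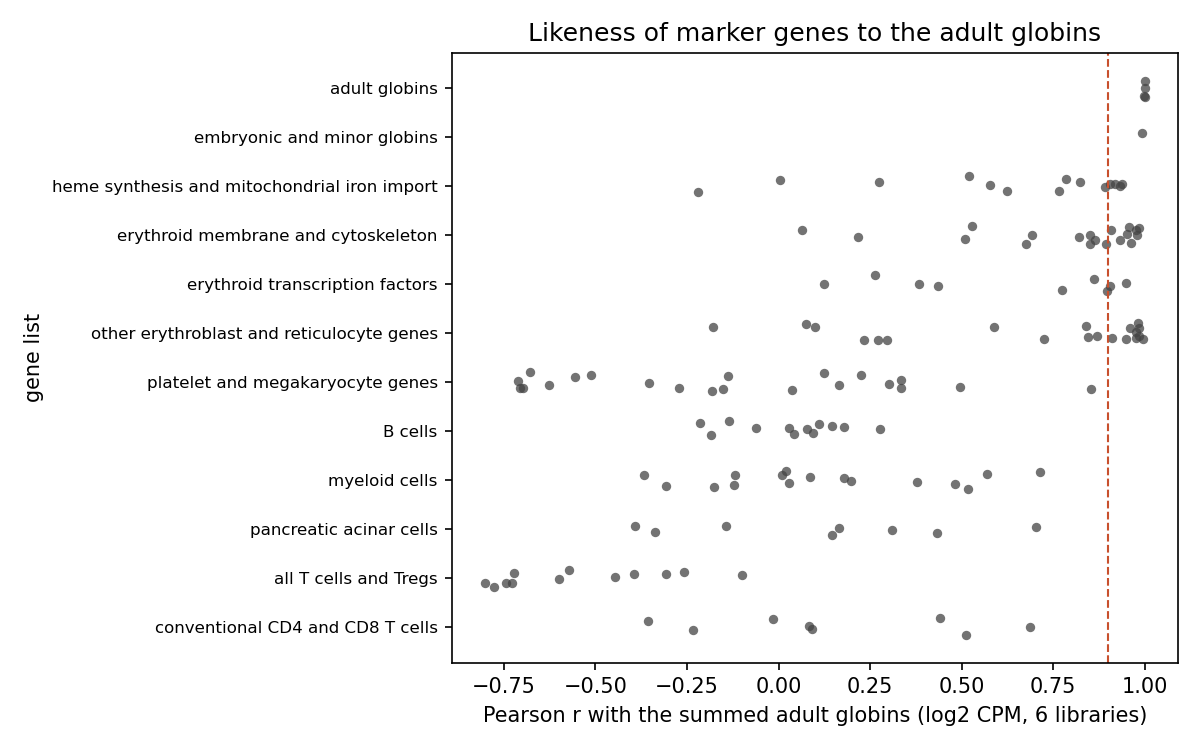
Pearson's r between the log2 CPM of each tested list gene and the log2 CPM of the summed adult globins over 6 libraries, 1 row per gene list, with a dashed line at 0.9. Points right of the line lie in the rows of globins and of the 4 erythroid lists, and 0 of the 21 tested platelet genes lie there. Of all genes tested, 1.1% had an r of at least 0.9.

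Markers of other cell types that a Treg sort could carry differed in their order of libraries. Their most abundant list genes were Igkc, Ighm and Cd79b for B cells, Lyz2, Ctss and Cst3 for myeloid cells, and Amy2a5, Cela1 and Cela2a for pancreatic acinar cells. The summed B cell markers were highest in WT replicate 2 (15925 CPM) and lowest in WT replicate 3 (3107 CPM), the library with the second highest globin level. Summed myeloid markers were highest in KO replicate 2 (1918 CPM) and lowest in WT replicate 3 (530.1 CPM). Their r with the globins was 0.20 and 0.18. Pancreatic acinar genes were highest in KO replicate 2 (85.5 CPM). Of the tested genes of these lists, 0 of 12 B cell, 0 of 16 myeloid and 0 of 8 acinar genes reached an r of 0.9. As 1.1% of all genes tested reached it, a count of 0 says little in lists of this size. The median r of the genes was 0.06 for B cells, 0.057 for myeloid cells and 0.16 for acinar cells. T cell and Treg markers summed to between 6834 CPM in KO replicate 1 and 9285 CPM in WT replicate 1, so the library with the most globin had the least of them. WT replicate 3, with the second highest globin level, had the second highest sum of them (8460 CPM). The r of this sum with the globins was -0.68 over the 6 libraries. Whether red cell transcripts have a part in these sums was not tested.

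**Figure D4:**
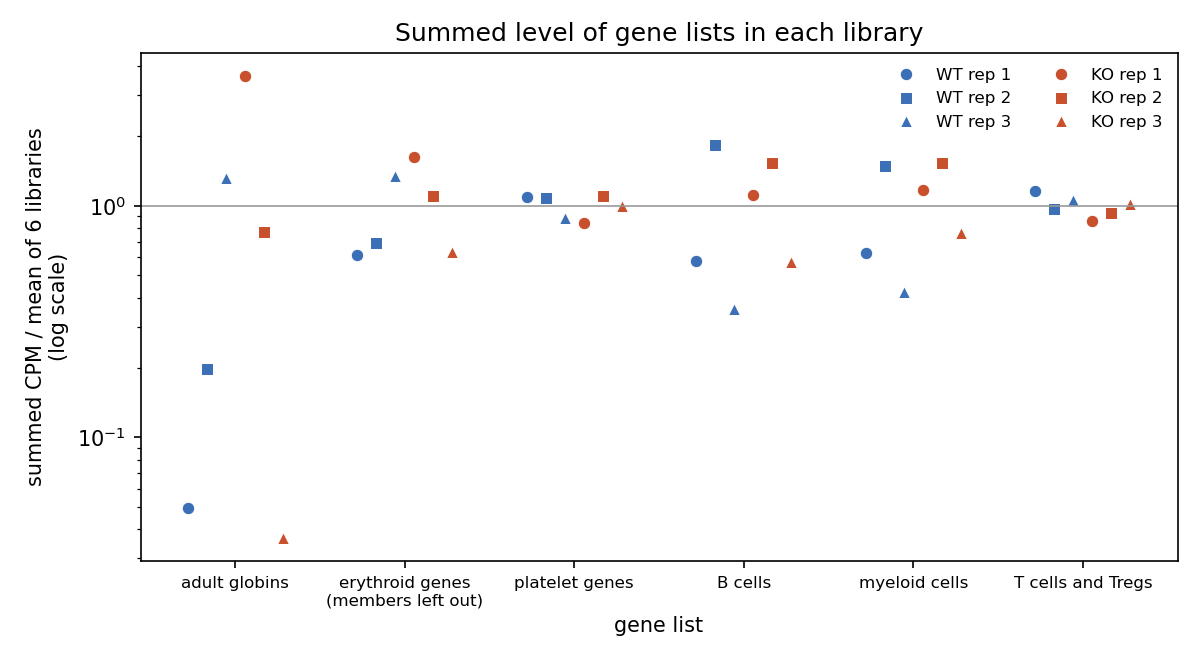
Summed CPM of 6 gene lists in each library, divided by the mean of the list over the 6 libraries, on a log axis. Adult globins spread from 76.7 to 7597 CPM, and the erythroid sum follows their order broadly with a narrower range (1009 to 2665 CPM). That sum includes abundant genes that varied little between libraries, such as Bnip3l (133 to 148 CPM). The B cell and myeloid sums are highest in WT replicate 2 and KO replicate 2.

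The sum of the erythroid genes without members was 1009, 1141 and 2217 CPM for WT, against 2665, 1808 and 1043 CPM for KO. It includes genes that varied little, such as Bnip3l (133 to 148 CPM) and Ppox (63.8 to 79.7 CPM). It also includes genes such as Rhd (0.323 to 66.6 CPM), so its narrower range than that of the globins does not hold for each gene in it. WT replicate 1 and KO replicate 3 were close at the low end, and KO replicate 1 and WT replicate 3 were the highest of their genotypes. The erythroid sum differed within each genotype, and for none of the 7 globin and erythroblast members did the genotypes separate.

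A number shared in the names of the deposited tables puts WT replicates 1 and 2 with KO replicate 2, and WT replicate 3 with KO replicates 1 and 3. No source used here says what the number marks. Within the first set the log2 ratio of mean summed globins (KO over WT) was 2.64, and within the second it was 0.48, with the highest and the lowest library of all in the second set. With the number as a term in edgeR, the log2 difference was 1.57 for Hba-a1 and 6.76 for Gp9 (unadjusted p = 0.00361), and 0 genes were called.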

How the data were processed

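For each library the authors deposited raw counts of reads for 53379 Ensembl gene identifiers. Per the labels' protocols, Tregs were sorted by flow cytometry, libraries were made with the SMARTer ultra-low-input and NEBNext kits, and single reads of 50 bases were taken. The submitters' processing notes name mm10, featureCounts, STAR 2.3 and bcl2fastq 2.19.0.316. No source used here gives the annotation release, the counting options or whether strand was used. The labels name no molecular identifiers, so intervals from counts cover counting error only.

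Symbols and positions came from GENCODE M21 on GRCm38, which matched 53274 identifiers. Ahsp was not matched. The genotypes were compared in edgeR 4.0.16 under R 4.3.3, using filterByExpr (minimum count of 10), TMM factors, the quasi-likelihood test (robust, genotype as sole term) and Benjamini-Hochberg adjustment over the 20475 genes tested. All 9 members passed the filter. DESeq2 1.42.0 and limma-voom (limma 3.58.1) were alternatives. Likeness is Pearson's r of log2 CPM (prior count 2) over 6 libraries, without a test. Genes named are the members, the 3 genes of highest mean in each of 12 lists, list genes at 0 counts, the 5 genes most like the members, and others said to be chosen after their values were seen. The members and lists were chosen with earlier results of these data known. No label ties a library to its own animal, and p-values hold only the spread among the 6 libraries, which may be technical. Some genes that these rules name are not reported here. The edgeR script was tested on simulated data.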

Additional observations from a re-analysis of the deposited data

How the results depend on the processing

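The count of genes called was 0 with edgeR under every scaling, filter, block, term and left-out library tried, and with limma-voom (750 at an unadjusted p under 0.05), and it was 63 with DESeq2, Gp9 among them. Without KO replicate 1 the log2 difference turned negative for Hba-a1 (-0.39), Hba-a2 (-0.36), Hbb-bs (-0.34), Hbb-bt (-0.36), Klf1 (-0.79), Slc4a1 (-0.55), Pf4 (-0.022) and the summed globins (-0.36), and without WT replicate 2 for Pf4 (-0.11). Left out 1 at a time, libraries gave ranges of -0.39 to 3.63 for Hba-a1, -0.36 to 3.60 for Hba-a2, -0.34 to 3.53 for Hbb-bs, -0.36 to 3.54 for Hbb-bt, -0.79 to 2.54 for Klf1, -0.55 to 4.30 for Slc4a1 and -0.11 to 0.30 for Pf4. Pf4 was -0.0029 with the table-name number as a term. The summed globins had a log2 ratio of 1.51, and of -0.36 to 3.59 with 1 library left out. The cause of these changes was not tested beyond the libraries left out.

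Deviations from the genotype means correlated at -0.095, 0.19 and 0.035 between same-numbered libraries, and at -0.18 to 0.13 between libraries of different number. With 3 libraries a genotype, these values cannot decide whether the replicate number of the labels pairs the libraries. With the replicate number as a block in edgeR, 0 genes were called. The log2 difference was then 1.83 for Hba-a1 and 6.90 for Gp9 (unadjusted p = 0.00206). Low counts limit Gp9, Pf4 (15 to 34 counts a library) and the partners of Gp9.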
